A study of Mus musculus with 28 samples.

Results

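Lungs of newborn mice that lacked both HRas and NRas were compared with lungs that lacked only 1 of these genes, in animals whose mothers had received N-acetyl cysteine (NAC) during pregnancy. The comparison held 10 of the 28 arrays of the series and covered the 22180 genes that had a probe set of their own. The DKO+NAC group (double knockout, NAC) had 4 arrays. HRas-KO+NAC and NRas-KO+NAC (single knockouts, NAC) had 3 arrays each and entered as the mean of the 2 groups with equal weight. All of these animals were newborns of postnatal day 0 and had been exposed before birth to NAC, given to the pregnant females at 0.5%. The same contrast without NAC, 5 DKO arrays against 3 HRas-KO and 3 NRas-KO arrays, shared no array with it and was used beside it. Control+NAC (4 arrays) gives the level in lungs with both genes. Each array was hybridised with RNA from the whole lung of 1 animal, so fewer cells of a type and less RNA per cell cannot be told apart. The labels of 14 samples give NAC exposure and were used for grouping, although a note repeated under every sample lists just 3. NAC is missing from the HRas-KO+NAC titles, so that group rests on its source and treatment labels. The strain, and which parts of the genes were deleted, are not given in the sources used here.

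RAS proteins are small GTPases that pass signals from growth factor receptors to the RAF, MEK and ERK kinase cascade and to other effectors. HRAS and NRAS are closely related members of this family. In the newborn lung, ERK signalling downstream of fibroblast growth factors feeds transcription factors such as Etv5, which takes part in keeping alveolar type 2 cells, the makers of surfactant. NAC is an antioxidant that supplies cysteine for glutathione. The series title reports that the double knockouts die of respiratory distress, and the NAC arm asks what the combined loss looks like in lungs after an antenatal antioxidant.

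Nras, the targeted gene that was measured (probe set 17401117, chromosome 3), separated the genotypes with 1 exception. Its log2 level was 7.61, 7.74, 7.56 and 8.08 on the DKO+NAC arrays. It was 8.42, 8.23 and 8.22 on the HRas-KO+NAC arrays and 7.56, 7.74 and 7.80 on the NRas-KO+NAC arrays. Control+NAC arrays read between 8.21 and 8.47. Untreated, arrays labelled as having Nras read as low as 8.08 (Control replicate 1). DKO+NAC replicate 4 therefore lay above every other array labelled as lacking Nras and level with the lowest array labelled as having it, and it goes against its label. This array also had the highest median of the 28 (5.41, against 5.25 to 5.35 on the others) and the narrowest interquartile range (2.78). The counts of genes called with NAC and between the arms, and the directions of the 10 genes with the smallest p, are also given without it. Differences of other genes include it. Hras was not analysed here.

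The groups also differed in sex. Xist, the RNA of the inactive X chromosome, read 10.84 to 11.07 on all 4 DKO+NAC arrays and 4.38 to 4.60 on all 3 HRas-KO+NAC arrays. It was high on 1 of the 3 NRas-KO+NAC arrays and on 2 of the 4 Control+NAC arrays. In the untreated arm it was high on 2 of 5 DKO, 2 of 3 HRas-KO and 2 of 3 NRas-KO arrays. The double knockouts with NAC were thus all female by this RNA and 5 of the 6 single knockouts were not, so a difference of genotype and a difference of sex can hardly be told apart under NAC. The start of the animal code in the titles, whose meaning the labels do not give, was the same for all 3 HRas-KO+NAC arrays and for DKO+NAC replicate 4, and differed among all 4 DKO+NAC arrays.

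**Figure D1:**
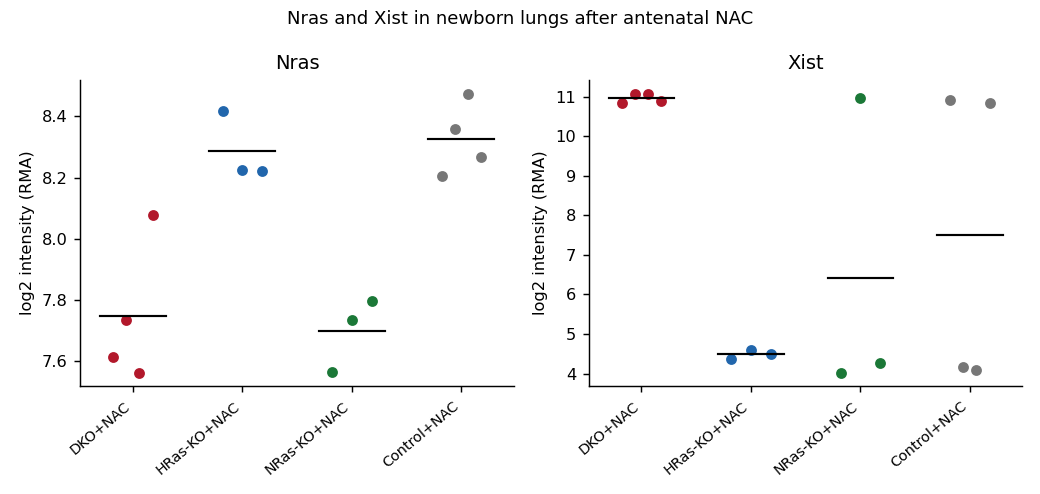
Log2 level of Nras (left) and Xist (right) on each NAC array. Each point is 1 animal and the bars are group means. DKO+NAC replicate 4 reads 8.08 for Nras, above the other DKO+NAC arrays, and Xist is high on all 4 DKO+NAC arrays and on 1 of 6 single-knockout arrays.

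With NAC, no gene passed the test between double and single knockouts. Of the 22180 genes, 0 passed an adjusted p under 0.05 (limma with Benjamini-Hochberg adjustment, 0.00%), and 975 had an unadjusted p under 0.05 (4.40%), fewer than the 1109 that 5% of the genes amounts to. The smallest adjusted p was 0.131. The median standard error of a gene's difference was 0.11 on the log2 scale and the median 95% interval reached 0.22 to either side, which is 1.17-fold. Only 32 genes differed by more than 1.5-fold and 6 by more than 2-fold, and 4 of these 6 were Xist and the Y-linked genes Eif2s3y, Kdm5d and Uty. The other 2 were Nppa, the atrial natriuretic peptide of heart muscle, at -1.21, and the ribosomal protein gene Rps13 at -1.06 (both adjusted p = 1, limma). These 2 were chosen after their values were seen.

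The 4 DKO+NAC arrays did not overlap the 6 single-knockout arrays for 144 genes (0.649%), lying above them for 72 (0.325%) and below them for 72 (0.325%). Of the 72 higher genes 7 were also called higher without NAC, where 5.83% of all genes were, and of the 72 lower genes 4 were also called lower, where 4.11% of all genes were. In 8 genes the arrays separated the same way in both arms, a number that cannot be judged here because the share of all genes separating untreated is not given. These included Os9 and Rnu3a, described below, and Atp6v0e, a subunit of the proton pump of acidic organelles, at 0.30 with NAC and 0.88 untreated, which was chosen after its values were seen.

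Os9, a lectin of the endoplasmic reticulum that hands misfolded glycoproteins to degradation, had the smallest p of all genes with NAC. It read 8.44, 8.32, 8.41 and 8.39 on the DKO+NAC arrays. It read 8.80, 9.01 and 8.82 on the HRas-KO+NAC arrays and 8.70, 8.61 and 8.80 on the NRas-KO+NAC arrays. Every DKO+NAC array was below every single-knockout array, and Control+NAC arrays (8.61 to 8.71) lay with the single knockouts. The difference was -0.40 ± 0.07 (SE, adjusted p = 0.131, limma), and it was -0.40 without replicate 4 and -0.35 with Xist as a covariate. In the untreated arm, on other animals, Os9 fell by 0.34 in DKO lungs (adjusted p = 0.00118), and the difference between the arms was -0.06 (95% interval -0.25 to 0.14).

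Tnnt2, the troponin T of heart muscle, was the other gene among the 10 smallest p-values that also passed without NAC. It read 8.18, 7.71, 7.85 and 7.52 on the DKO+NAC arrays, 8.60, 9.24 and 8.61 on the HRas-KO+NAC arrays, and 8.33, 8.63 and 8.17 on the NRas-KO+NAC arrays. The groups overlapped by 1 array, NRas-KO+NAC replicate 3. The difference was -0.78 ± 0.20 (adjusted p = 0.758) with NAC and -0.63 ± 0.19 (adjusted p = 0.0296) without.

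Immune receptor genes made up 2 more of the 10. Klrc1, which encodes an inhibitory receptor of natural killer cells, read 4.01, 4.48, 4.11 and 4.25 on the DKO+NAC arrays, 3.74, 3.99 and 3.66 on the HRas-KO+NAC arrays and 3.62, 3.75 and 3.76 on the NRas-KO+NAC arrays. Cd79a, a signalling chain of the B cell receptor, read 4.47, 4.71, 4.55 and 4.50 on the DKO+NAC arrays, 4.42, 4.29 and 4.15 on the HRas-KO+NAC arrays and 4.07, 4.08 and 4.16 on the NRas-KO+NAC arrays. For both genes the DKO+NAC arrays were above all single-knockout arrays, at levels near the lower end of the array's scale. The differences were 0.46 ± 0.10 for Klrc1 and 0.36 ± 0.09 for Cd79a (adjusted p = 0.483 and 0.727), against -0.10 and -0.07 untreated. For Klrc1 the difference between the arms itself passed (0.56 ± 0.14, adjusted p = 0.0371). Klrc1 was named for its small p with NAC, and the difference between the arms contains that contrast, so this is not separate support.

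Terf2ip, a subunit of the shelterin complex at telomeres, read 7.35, 7.49, 7.57 and 7.42 on the DKO+NAC arrays, against 7.75 to 7.82 on the HRas-KO+NAC and 7.76 to 7.83 on the NRas-KO+NAC arrays. The groups did not overlap and the difference was -0.34 ± 0.07 (adjusted p = 0.291), against 0.00 without NAC. The other members of this group of 10 were Hba-x, an embryonic globin chain (0.45), Cypt14 on the X chromosome (0.33), C1ql4, a secreted C1q-like protein (0.37), Apol7c of the apolipoprotein L family (0.61), and Car9, a carbonic anhydrase induced by low oxygen (-0.39). Their adjusted p-values lay between 0.778 and 0.895, and none of these 5 was called without NAC. Without DKO+NAC replicate 4 the 10 differences kept their directions, with Tnnt2 at -0.68, Apol7c at 0.49, Car9 at -0.30, Cypt14 at 0.24 and C1ql4 at 0.28.

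**Figure D2:**
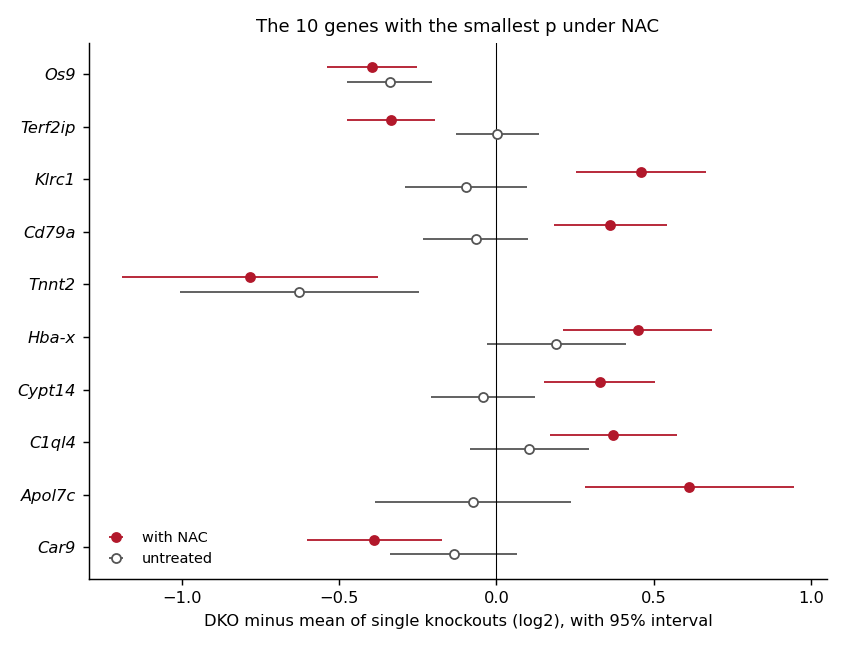
Difference of double from single knockouts on the log2 scale for the 10 genes with the smallest p under NAC, with NAC (filled) and untreated (open). Lines are 95% intervals. The genes were chosen on the NAC values, and of the 10 only Os9 and Tnnt2 were also called untreated.

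Set against each single knockout by itself, the double knockout gave the same result. Against HRas-KO+NAC, 0 genes were called (0.00%), with 1482 at an unadjusted p under 0.05 (6.68%), and against NRas-KO+NAC 0 were called (0.00%), with 826 (3.72%). The 2 single knockouts differed in 0 called genes from each other (0.00%), with 1438 unadjusted (6.48%). Nras was lower by 0.54 in DKO+NAC than in HRas-KO+NAC (95% interval -0.78 to -0.30, adjusted p = 0.376). This is the deletion that separates the 2 genotypes, and its difference did not pass the test across all genes. That value includes DKO+NAC replicate 4, which read 8.08. With array weights the Nras difference was -0.59 and passed (adjusted p = 0.0422, limma). Against NRas-KO+NAC the Nras difference was 0.05 (-0.19 to 0.28). The 2 comparisons share the DKO+NAC arrays. Rny1, a small Y RNA, read 11.06, 11.58, 11.15 and 10.85 on the DKO+NAC arrays, against 10.48, 10.14 and 10.23 on the HRas-KO+NAC arrays, and 11.09, 11.02 and 11.18 on the NRas-KO+NAC arrays. Its difference of 0.88 from HRas-KO+NAC (adjusted p = 0.376) therefore had no counterpart against NRas-KO+NAC (0.06).

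Without NAC the same contrast called 2206 genes (9.95%), 1294 higher (5.83%) and 912 lower (4.11%) in DKO. Untreated counts for the gene lists below are to be read beside these shares of all genes. The untreated DKO arrays share no code start with the untreated single knockouts, so genotype and code start cannot be told apart there, whereas 3 of the 4 DKO+NAC arrays share one with a single knockout. With code start as a random block the untreated count was 1642. On the NAC arrays the same genes had smaller differences. The 1294 genes higher untreated had a median difference of 0.44 there and of 0.03 with NAC (quartiles -0.04 and 0.11), and 803 of them (62.1%) were above 0, against 50.9% of all genes. The 912 genes lower untreated had a median of -0.44 untreated and of -0.01 with NAC (quartiles -0.09 and 0.07), and 491 (53.8%) were below 0, against 49.1% of all genes. The genes were chosen on the untreated arrays, so their untreated medians follow from that choice. The direct test of the difference between the arms passed for 210 of the 1294 and 136 of the 912, and for 1.62% of all genes. That difference contains the untreated contrast on which these genes were chosen, so a share above that of all genes follows from the choice.

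**Figure D3:**
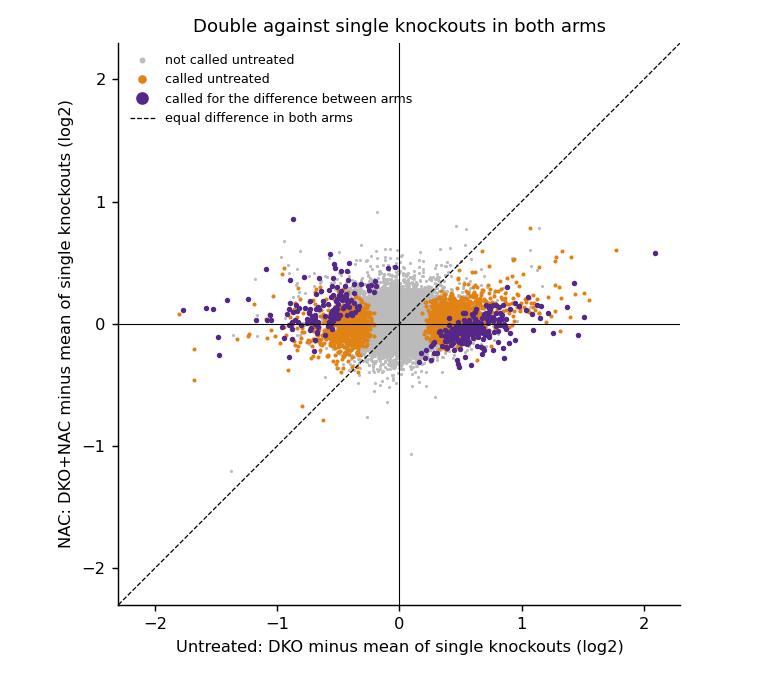
Difference of double from single knockouts for each gene, with NAC (vertical) and untreated (horizontal), on the log2 scale. Grey points are genes not called untreated, orange points are called untreated and purple points are called for the difference between the arms. The points spread along the horizontal axis and not along the dashed line of equal difference, and 4 genes lie outside the axes.

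The difference between the arms was tested directly, gene by gene. It passed for 360 genes (1.62%; 274 with code start as a random block), 146 with a positive value (0.658%), where DKO stood higher against the single knockouts with NAC than without, and 214 with a negative one (0.965%). Centring each array on its median moved this split to 84 and 260. Of the 360, 346 were also called untreated, which is 96.1% of the first list and 15.7% of the second, and in 344 of these the NAC difference was the smaller one. The 2 contrasts share no array, but this difference contains both. With DKO+NAC replicate 4 left out the count was again 360, and with Xist as a covariate it was 177, whereas without DKO+NAC replicate 2 it was 168 and without replicate 1 it was 191. Without 1 array each of HRas-KO (replicate 2), NRas-KO (replicate 1) or HRas-KO+NAC (replicate 1) it was 210.

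Among ERK target genes, 1 of 17 passed for the difference between the arms, as did 1.62% of all genes. This was Etv5, the transcription factor named above, which read 7.70, 7.60, 7.72 and 7.11 on the DKO+NAC arrays, 7.68, 7.80 and 7.90 on the HRas-KO+NAC arrays and 7.70, 8.001 and 7.68 on the NRas-KO+NAC arrays. DKO+NAC replicates 2 and 4 lay below all single-knockout arrays and replicates 1 and 3 lay among them. Replicate 4, whose Nras level goes against its label, was the lowest, and the NAC difference of Etv5 includes it. Untreated, it read 7.23 to 7.81 on the 5 DKO arrays, against 8.83 to 9.16 on the HRas-KO arrays and 8.54 to 8.82 on the NRas-KO arrays. The difference was -0.26 (95% interval -0.54 to 0.02, adjusted p = 1) with NAC and -1.48 (adjusted p = 1.17e-07) without, and the difference between the arms was 1.22 ± 0.19 (adjusted p = 0.00247). Of the 17 measured ERK targets, 0 were called with NAC and 5 fell untreated. Dusp4, a phosphatase that acts on MAP kinases, and Spry1, a feedback inhibitor of receptor tyrosine kinase signalling, were among those 5 (-0.59 and -0.33) and stood at -0.26 and -0.14 with NAC. Etv4, a relative of Etv5, was called in neither arm (0.11 with NAC, -0.10 untreated). The list's median was -0.02 with NAC and -0.09 untreated, beside 0.00 and 0.01 for all genes.

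In the pathway above these targets no member passed the test with NAC. Of 17 RAS family genes, 22 regulators of RAS and 10 genes of the RAF to ERK cascade, 0 were called with NAC, with medians of 0.03, 0.05 and 0.06. Untreated, 2 rose and 2 fell in the RAS family, 1 regulator rose, and 2 rose and 2 fell in the cascade. Over all genes 5.83% rose and 4.11% fell there. Braf, a RAF kinase, stood at 0.18 with NAC (adjusted p = 1) and rose by 0.30 untreated (adjusted p = 0.00597). Nras itself stood at -0.25 (95% interval -0.45 to -0.05, adjusted p = 1). Rap2b, a RAS-related GTPase, stood at -0.35 with NAC (-0.58 to -0.12, adjusted p = 1) and -0.03 untreated.

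Interferon-stimulated genes, which defend cells against viruses, had the lowest untreated median of the lists described here. Of 24 measured members 13 fell and 0 rose in untreated DKO lungs, beside 4.11% and 5.83% of all genes, with a median of -0.49. With NAC 0 were called, with a median of -0.05 and 17 of 24 below 0. Bst2, which tethers budding viruses to the cell, read 7.38, 7.88, 7.92 and 7.65 on the DKO+NAC arrays, 8.16, 8.08 and 8.65 on the HRas-KO+NAC arrays and 8.81, 7.49 and 7.82 on the NRas-KO+NAC arrays. The DKO+NAC arrays lay below the HRas-KO+NAC arrays and among the NRas-KO+NAC arrays. The difference was -0.46 (95% interval -0.96 to 0.04, adjusted p = 1), against -1.68 untreated (adjusted p = 3.79e-05), so for this gene the NAC interval still allows a fall of some size. Oas2, an enzyme that senses double-stranded RNA, read 5.81 to 5.91 on the DKO+NAC arrays, 5.28 to 5.82 on the HRas-KO+NAC arrays and 5.41 to 5.998 on the NRas-KO+NAC arrays. It stood at 0.24 with NAC and fell by 0.68 untreated, and the difference between the arms passed (0.92, adjusted p = 0.0322). Mx1, an antiviral GTPase (-0.26), and Ifih1, a sensor of viral RNA (-0.24), were the members with small p that were called in neither arm. Ifih1 read 7.14 on DKO+NAC replicate 4 and 7.67 to 7.71 on the other DKO+NAC arrays.

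Interferon-stimulated genes are commonly reached by factors that bind repeated GAAA blocks in the promoter. The promoters of the largest faller, Bst2, and of Ifih1, which was not called, are shown to compare them, from 250 bases before to 50 after the start of the gene (RefSeq, GRCm38.p6). Capitals mark GAAANNGAAA or its complement TTTCNNTTTC, with overlapping copies counted.
Bst2, chr8:71537423-71537722, minus strand: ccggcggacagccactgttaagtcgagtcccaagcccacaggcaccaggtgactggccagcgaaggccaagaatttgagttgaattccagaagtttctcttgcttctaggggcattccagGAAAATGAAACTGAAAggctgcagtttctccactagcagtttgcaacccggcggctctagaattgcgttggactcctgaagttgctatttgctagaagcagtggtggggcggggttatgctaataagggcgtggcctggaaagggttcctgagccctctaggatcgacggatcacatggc
Ifih1, chr2:62646206-62646505, minus strand: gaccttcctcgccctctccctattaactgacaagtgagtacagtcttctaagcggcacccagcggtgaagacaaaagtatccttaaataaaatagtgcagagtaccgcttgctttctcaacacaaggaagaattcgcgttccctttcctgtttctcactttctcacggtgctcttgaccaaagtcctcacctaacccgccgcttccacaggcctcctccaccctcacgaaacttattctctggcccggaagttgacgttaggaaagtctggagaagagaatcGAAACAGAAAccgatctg
Bst2 held 2 overlapping copies and Ifih1 held 1. Of the 24 members of the list, 16 had a promoter in the table and 10 of these held the motif, against 3.44% of all 32851 promoter windows. A gene of the list was counted if any of its windows held the motif, whereas the percentage is over single windows, so the measures are not alike. A match describes these letters and does not show a bound factor.

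p53 target genes respond to DNA damage and other stress. Of 19 measured, 8 rose and 1 fell untreated (median 0.19), beside 5.83% and 4.11% of all genes, and 0 were called with NAC (median 0.04). The difference between the arms passed for 5 with a negative and 1 with a positive value, beside 0.965% and 0.658% of all genes. Perp, a membrane protein of cell junctions induced by p53, read 9.13, 9.03, 9.19 and 9.57 on the DKO+NAC arrays, 9.58, 9.35 and 9.25 on the HRas-KO+NAC arrays and 8.87, 8.88 and 8.90 on the NRas-KO+NAC arrays. The DKO+NAC arrays were above the NRas-KO+NAC arrays and among the HRas-KO+NAC arrays, with a difference of 0.09 (-0.24 to 0.42). Untreated it rose by 1.22 (adjusted p = 1.02e-05). Sesn1, which restrains the growth kinase mTORC1, stood at -0.05 with NAC (-0.43 to 0.32) and rose by 1.09 untreated. Tnfrsf10b, a death receptor, stood at -0.08 with NAC (-0.53 to 0.38) and rose by 1.26 untreated. Fas, another death receptor, stood at 0.20 with NAC and rose by 0.69 untreated. Gtse1 (-0.22), Plk2 (-0.41) and Zmat3 (0.15), the other members with small p under NAC, were not called in either arm.

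**Figure D4:**
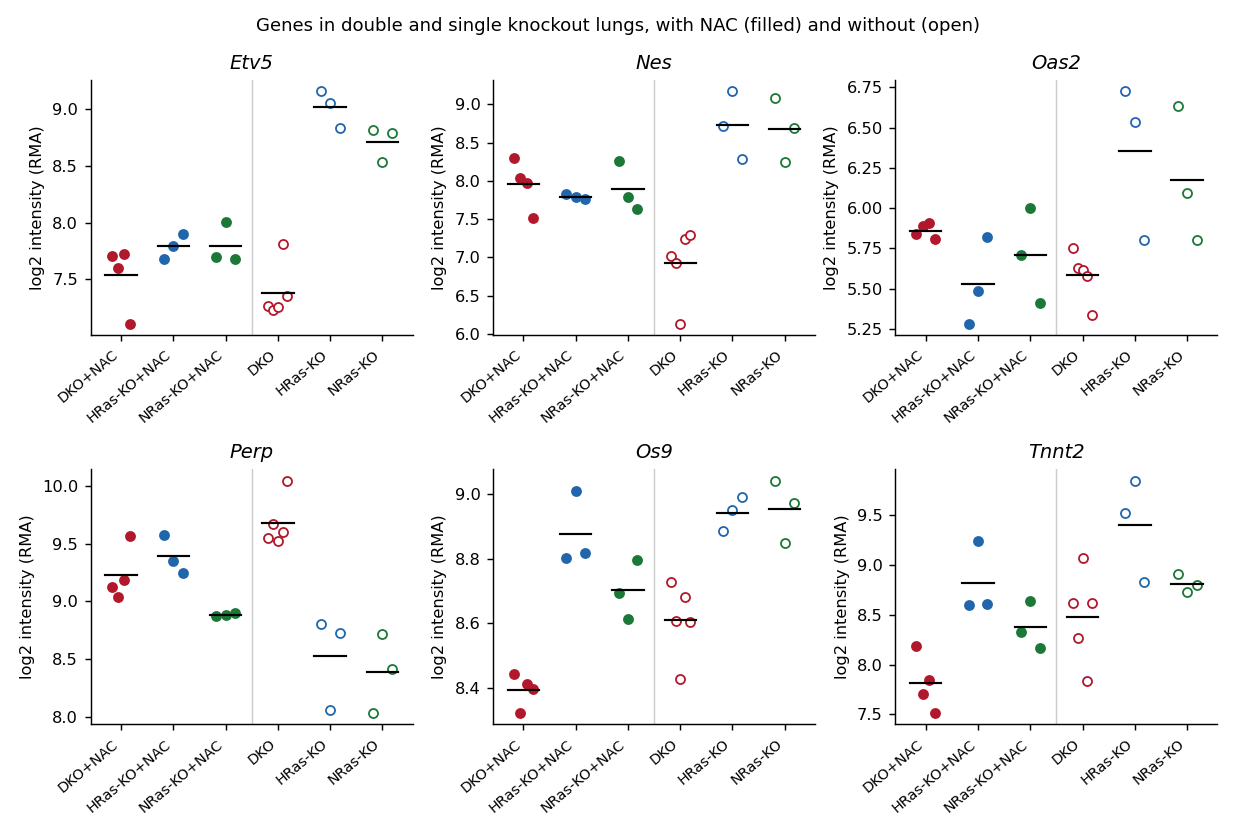
Log2 level of 6 genes on each array of the double and single knockouts, with NAC (filled, left of the grey line) and untreated (open). Bars are group means. Etv5, Nes, Oas2 and Perp differ between DKO and the single knockouts untreated and overlap with NAC, while every Os9 value of the double knockouts lies below those of the single knockouts in both arms. Tnnt2 overlaps by 1 array with NAC.

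Nes, the intermediate filament nestin of immature and perivascular cells, had the largest positive difference between the arms by the rule for named genes. It read 8.30, 8.03, 7.97 and 7.51 on the DKO+NAC arrays, against 7.77 to 7.83 on the HRas-KO+NAC and 7.64 to 8.25 on the NRas-KO+NAC arrays. Untreated it read 6.14 to 7.29 in DKO, against 8.28 to 9.17 in HRas-KO and 8.25 to 9.08 in NRas-KO. The double knockouts overlapped with the single knockouts with NAC and were wholly below them untreated, and the difference between the arms was 1.88 ± 0.31 (adjusted p = 0.00448). Ly96, which lets Toll-like receptor 4 recognise lipopolysaccharide (1.71), the zinc finger gene Zfp781 (1.61), Pdgfb, a growth factor that recruits pericytes (1.45), and Nexn, an actin-binding protein (1.37), followed it. With NAC these 4 stood at 0.13, 0.20, 0.21 and -0.11.

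On the negative side Rnu3a, the U3 small nucleolar RNA that takes part in ribosomal RNA processing, came first (-1.51, adjusted p = 0.0352). It read 7.32 to 7.63 on the DKO+NAC arrays, against 6.59 to 7.003 on the HRas-KO+NAC and 6.69 to 7.26 on the NRas-KO+NAC arrays, and the groups did not overlap. Its difference was 0.58 with NAC (0.02 to 1.14, adjusted p = 1) and 2.09 untreated (adjusted p = 8.81e-06). Mfap5, a protein of elastic microfibrils, stood at -0.28 with NAC and rose by 0.85 untreated, with a difference between the arms of -1.14. Rasd1, a RAS-related GTPase induced by glucocorticoids, and Cyp2b10, a cytochrome P450 of club cells, rose by 1.55 and 1.43 untreated and stood at 0.19 and 0.25 with NAC. For these 2 genes the difference between the arms did not pass (adjusted p = 0.0571 and 0.0735).

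Both sides of the contrast lay elsewhere in the NAC arm. Over the 146 genes with a positive difference between the arms, the median level was 0.32 higher in DKO+NAC than in DKO, 0.45 lower in the single knockouts with NAC than without, and 0.37 lower in Control+NAC than in Control. Over the 214 genes with a negative one, the same medians were -0.33 for DKO, 0.32 for the single knockouts and 0.28 for controls. Etv5 was an extreme case: it was 0.15 higher in DKO+NAC than in DKO, and 1.07 lower in the single knockouts with NAC than without. For Nes these shifts were 1.03 and -0.85, and for Tnfrsf10b they were -1.37 and -0.04. The genes were chosen by this difference, so these values describe it and test nothing. No code start occurred in both arms, so the arm and the code start cannot be told apart.

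Sphingolipid enzymes and the respiratory chain are the themes of the series title. Of 46 sphingolipid genes 13 rose and 0 fell in untreated DKO lungs (median 0.15), beside 5.83% and 4.11% of all genes. With NAC 0 were called (median 0.01, 24 above and 22 below 0). Sphk1, a kinase that makes sphingosine 1-phosphate, read 6.67 to 6.73 on the DKO+NAC arrays, 6.57 to 6.86 on the HRas-KO+NAC arrays and 6.25 to 6.52 on the NRas-KO+NAC arrays. It was above NRas-KO+NAC and among HRas-KO+NAC, with a difference of 0.17 (adjusted p = 1), while untreated it rose by 0.53 (adjusted p = 0.000116). Its relative Sphk2 was above both single knockouts with NAC (0.25, adjusted p = 1). Ormdl3, an inhibitor of the first step of ceramide synthesis, was below both by a narrow margin, with 5.62 on the highest DKO+NAC array and 5.62 on the lowest single-knockout array (difference -0.34, adjusted p = 1), and Ormdl2 stood at -0.32. Of 32 complex I genes 5 rose and 1 fell untreated and 0 were called with NAC (median -0.04), and of 36 genes of the other complexes 6 rose and 3 fell untreated and 0 were called with NAC (median -0.03). Ndufa10 and Ndufb7, complex I subunits, stood at -0.28 and -0.18 with NAC. Atp5a1, the alpha subunit of ATP synthase, stood at -0.18 and Cox7b, a subunit of cytochrome c oxidase, at 0.30. These lists were chosen for themes the title reports from this series, so the untreated direction is not independent evidence.

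Glutathione and NRF2 target genes are the ones nearest to the chemistry of NAC. Of 32 measured, 0 were called with NAC (median 0.01, 18 above and 14 below 0), and 5 rose and 1 fell untreated (median 0.18). Gsta4, a glutathione transferase that clears lipid peroxidation products, read 8.01, 7.98, 8.40 and 7.78 on the DKO+NAC arrays, against 8.39 to 8.48 on the HRas-KO+NAC and 8.001 to 8.53 on the NRas-KO+NAC arrays. It stood at -0.33 with NAC (-0.60 to -0.05, adjusted p = 1) and rose by 0.48 untreated, and the difference between the arms passed (-0.80, adjusted p = 0.0245). Sod2, the mitochondrial superoxide dismutase (-0.14), Cth, which makes cysteine from cystathionine (0.28), and Slc7a11, the cystine importer (0.29), were called in neither arm.

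Surfactant and alveolar type 2 genes marked the tissue. Sftpc, the surfactant protein C of type 2 cells, read 13.11 to 13.16 on the DKO+NAC arrays, near the top of the scale, and its difference was 0.03 (95% interval -0.09 to 0.15). Of 22 type 2 genes 0 were called with NAC (median 0.00), and 2 rose and 5 fell untreated (median -0.28). Ctsh and Lpcat1, an enzyme each of surfactant protein processing and surfactant lipid synthesis, stood at -0.10 and -0.10 with NAC. Of 16 type 1 genes 0 were called with NAC (median -0.01), and 4 rose and 1 fell untreated. Glucocorticoid-responsive genes, which prepare the lung for birth, had 0 of 20 called with NAC (median 0.01) and 5 higher untreated (median 0.14).

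No cell cycle gene passed the test. With NAC 27 of 28 were below 0 (median -0.14) and 0 were called, and against HRas-KO+NAC alone 28 of 28 were below 0 (median -0.30). Against NRas-KO+NAC 21 of 28 were (median -0.05). The list's mean, relative to each gene's mean over all arrays, was -0.52, -0.19, 0.07 and 0.07 on the DKO+NAC arrays, 0.07, 0.11 and 0.21 on the HRas-KO+NAC arrays and 0.06, -0.37 and 0.05 on the NRas-KO+NAC arrays. DKO+NAC replicate 1 was the lowest, and replicates 3 and 4 lay among the single knockouts. Replicate 2 lay within their range too, below all of them but NRas-KO+NAC replicate 2. Ccna2, the S phase cyclin A2, read 5.79, 6.99, 7.30 and 6.97 on the DKO+NAC arrays, 7.43, 7.46 and 7.53 on the HRas-KO+NAC arrays and 7.50, 6.35 and 7.30 on the NRas-KO+NAC arrays. The low values were DKO+NAC replicate 1 and NRas-KO+NAC replicate 2, which share a code start. Kif20a, a kinesin of cell division (-0.26), Cdc6 (-0.24) and Mcm3 (-0.25), which license DNA for replication, had adjusted p-values of 1. Untreated, 1 member rose and 1 fell, Mcm3 being the one that fell (-0.44), while 5.83% of all genes rose and 4.11% fell.

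**Figure D5:**
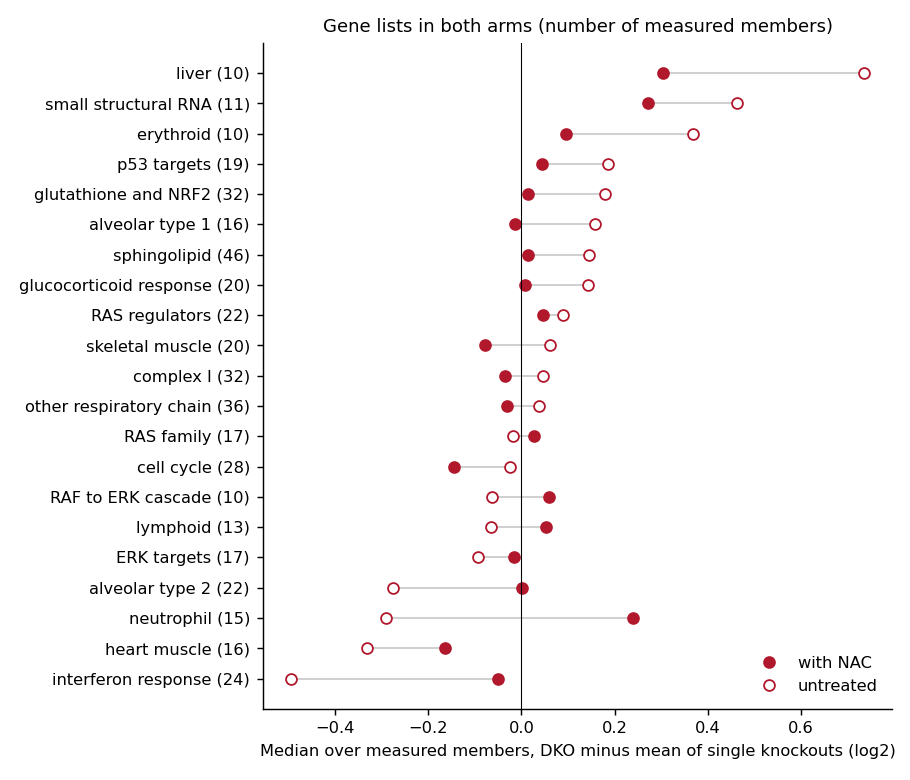
Median difference of double from single knockouts over the measured members of each gene list, with NAC (filled) and untreated (open), on the log2 scale. The number of measured members is in brackets. With NAC the interferon and type 2 medians lie at -0.05 and 0.00, against -0.49 and -0.28 untreated, while the liver, small structural RNA and neutrophil medians lie furthest above 0.

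No marker of the other tissues and cell types described here was called with NAC. The muscle lists and the small structural RNA list were also used as covariates, with the counts given in this paragraph and below. The part of the other lists in the results was not tested. Of 20 skeletal muscle genes 13 were below 0 with NAC (median -0.08), and of 16 heart muscle genes 14 were (median -0.16), and 0 of either list were called. Untreated, 15 of the 16 heart genes, which include Tnnt2, were below 0 (median -0.33), and 4 were called lower and 0 higher. Of the skeletal muscle genes 0 were called untreated (median 0.06). The mean of the heart list, relative to each gene's mean over all arrays, lay between -0.39 and -0.21 in DKO+NAC, between -0.10 and 0.45 in HRas-KO+NAC, and between -0.33 and 0.17 in NRas-KO+NAC. In Control+NAC it lay between -0.31 and -0.01, overlapping DKO+NAC. Untreated, this mean was 0.64, 0.70 and 0.17 on the HRas-KO arrays. It lay between 0.11 and 0.15 in NRas-KO, between -0.21 and 0.06 in DKO and between 0.06 and 0.21 in Control. Myh6, a heart myosin, stood at -0.76, Actc1, the heart actin, at -0.49 and Tnni3, the heart troponin I, at -0.27, with adjusted p-values of 0.906, 1 and 1. All 10 liver genes were above 0 (median 0.30), with list means of -0.51 to 0.26 in DKO+NAC, -0.89 to 0.19 in HRas-KO+NAC and -1.10 to 0.38 in NRas-KO+NAC, and 14 of 15 neutrophil genes were above 0 (median 0.24). Of the neutrophil genes Lcn2 stood at 0.34, Chil3 at 0.53 and S100a9 at 0.34. Of 13 lymphoid genes 8 were above 0 (median 0.05), with Gzma, a granule protease of killer cells, at 0.46 and Cd79b, the partner of Cd79a, at 0.25. Of 10 erythroid genes 7 were above 0 (median 0.09), and 4 rose untreated. Hbb-y, an embryonic globin, stood at 0.47 with NAC and rose by 1.14 untreated. Small structural RNAs were above 0 for 10 of 11 (median 0.27). Their list means ran from -0.16 to 0.39 in DKO+NAC, from -0.45 to -0.12 in HRas-KO+NAC and from -0.17 to -0.03 in NRas-KO+NAC. Rny1 (0.47), Rny3 (0.55), Vaultrc5 (0.62) and Rnu3a (0.58) had the smallest p among them, each with an adjusted p of 1, and 4 members of this list rose untreated. With this list as a covariate the untreated count was 856 genes and the NAC count 0.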

How the data were processed

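The deposited values were log2 intensities, 1 per probe set and array, which the authors made with RMA and affy; the submitters' processing notes name both without versions. RMA subtracts background, equalises array distributions and summarises probes, so uniform shifts between arrays are removed. The table held 41345 probe sets on 28 arrays, 23521 with 1 gene symbol. The brightest stood for a gene, leaving 22180. Means of the 8 groups were fitted over the 28 arrays with limma 3.58.1 (R 4.3.3), with 20 residual and 5.95 prior degrees of freedom. Calls needed an adjusted p (Benjamini-Hochberg, all genes) under 0.05. Adjusted p-values come from this fit unless another is named, and its code was tested on simulated data. The number of arrays limits the precision.

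The comparison and the 60 gene lists (1042 of 1139 entries measured) were chosen with earlier results of these data known. Genes were named by a rule: Nras, called genes whose arrays do not overlap (up to 15 each way under NAC, 5 elsewhere; by size alone for the difference between the arms), the 10 smallest p-values where under 10 genes were called, and from each list described the 4 smallest p-values under NAC. That rule passed over predicted genes, clones, microRNAs, Snor genes, Y-linked genes and Xist. Sftpc is named outside it, as the check of the tissue.

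Pairing by replicate number was checked on deviations from group means, whose mean correlation was 0.02 over 37 pairs of equal number within an arm, so the numbers were not taken to pair arrays. Arrays sharing a code start correlated at 0.15 (28 pairs). Alternatives covered probe set choice, filters, normalization, moderation, weights, groups fitted, blocks, covariates and each array left out.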

Additional observations from a re-analysis of the deposited data

Results flagged for a closer look

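In 7 of the 138 sets of 4 or 5 arrays checked, 1 array lay far from the others of its group, and chance alone marks about 1 in 20 sets. In DKO+NAC, Ifih1 read 7.14 on replicate 4 (7.67 to 7.71 on the others) and Myh6 read 6.14 on replicate 1 (5.64 to 5.68). In untreated DKO, Etv5 read 7.81 on replicate 4 (7.23 to 7.35), Sphk2 7.21 on replicate 4 (6.85 to 6.94), Mx1 3.70 on replicate 1 (3.48 to 3.53), Cd79b 5.33 on replicate 1 (5.64 to 5.75) and Ormdl3 5.27 on replicate 2 (5.61 to 5.70).

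For 14 of the 67 genes followed here, the difference of double from single knockouts was not the same with NAC as without, by the test of that difference itself (limma, adjusted over all genes). NAC minus untreated, on the log2 scale, it was 1.88 for Nes, 1.71 for Ly96, 1.61 for Zfp781, 1.45 for Pdgfb, 1.37 for Nexn, 1.22 for Etv5, 0.92 for Oas2 and 0.56 for Klrc1. Nes, Ly96, Zfp781, Pdgfb, Nexn and the first 5 of the genes that follow were named because they passed this same test, which 360 of 22180 genes passed (1.62%). It was -1.51 for Rnu3a, -1.33 for Tnfrsf10b, -1.15 for Sesn1, -1.14 for Mfap5, -1.13 for Perp and -0.80 for Gsta4. Klrc1, Oas2 and Gsta4 were named for small p with NAC, and Etv5 for that and for its untreated fall. The difference between the arms contains both contrasts, so their passing is not separate support.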

How the results depend on the processing

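The count of genes called between double and single knockouts under NAC was 0 in every alternative limited to named genes, including each of the 10 arrays left out in turn (0 to 0, with 780 to 1565 unadjusted), and 10 over all probe sets. Leaving out an array gave 0 to 0 against HRas-KO+NAC, 0 to 0 against NRas-KO+NAC, 0 to 0 between the single knockouts, 1719 to 2174 untreated and 168 to 394 for the difference between the arms. That last count was 168, 191 and 235 without DKO+NAC replicates 2, 1 and 3, 227 without DKO replicate 5, and 210 without HRas-KO replicate 2, NRas-KO replicate 1 or HRas-KO+NAC replicate 1. With the replicate number as a block the counts were 0 under NAC (1361 unadjusted), 1699 untreated and 353 between the arms. Over all probe sets, 25 were called against HRas-KO+NAC, 8 against NRas-KO+NAC and 3359 untreated. Against HRas-KO+NAC, array weights gave 4 genes (Nras, Os9, Olfr1198 and Rny1) and a fit of only the groups compared gave 4 (Xist and Y-linked genes). Arrays high in Xist alone left 1 NRas-KO+NAC array, so no count is given for that subset. Robust moderation gave 1 gene between the single knockouts. The untreated count was 1118 with the muscle lists and 856 with small structural RNA as covariates, and 508 with a 1.5-fold minimum. The count between the arms was 596 with array weights, 236 with only the groups compared and 177 with Xist as a covariate.

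Of 1663 differences over 67 genes, none of which passed the test in the report, 38 changed sign. Within the code start of DKO+NAC replicate 4, Nras stood at 0.037, Dusp4 at 0.053, Gtse1 at 0.047, Cth at -0.048, Slc7a11 at -0.042, Chil3 at -0.049, S100a9 at -0.10, Nes at -0.21, Ly96 at -0.056, Zfp781 at -0.11, Pdgfb at -0.30, Sesn1 at 0.16, Mfap5 at 0.015 and Cyp2b10 at -0.13. That code start holds 1 DKO+NAC array, whose Nras level goes against its label, and 1 NRas-KO+NAC array, so these values rest on single animals. With code start as a block, Nes stood at -0.021, Ly96 at -0.21, Zfp781 at -0.047 and Sesn1 at 0.071. With Xist as a covariate, Oas2 stood at -0.0060, Fas at -0.0002, Tnfrsf10b at 0.013 and Cyp2b10 at -0.022. With the muscle lists, Zfp781 stood at -0.014, Perp at -0.034 and Rasd1 at -0.081, and with small structural RNA, Nexn at 0.0014 and Cyp2b10 at -0.012. Array weights gave 0.064 for Nexn and 0.054 for Tnfrsf10b, and the replicate block 0.079 for Nexn. With 1 array left out, the differences ran from -0.33 to 0.24 for Nexn, -0.27 to 0.12 for Tnfrsf10b, -0.17 to 0.049 for Sesn1, -0.085 to 0.34 for Ly96, -0.0067 to 0.26 for Nes and -0.023 to 0.16 for Perp. The causes were not tested. The small structural RNA covariate and the subsets of arrays by Xist level were chosen after seeing the data. Low signal, as for Klrc1, limits what can be read from small differences.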

Other observations

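A fit over all 41345 probe sets, which includes those without a gene name, called 10 under NAC, all lower in the double knockouts. These were Os9 (adjusted p = 0.0202, limma), 2 probe sets shared by several gene symbols, and 7 with no symbol in the annotation used here. Os9 had the same difference (-0.40) in the fit over named genes, where its adjusted p was 0.131 (limma). An adjusted p depends on which probe sets are tested together, so the lower value is not separate support for Os9. The 2 shared probe sets had the same difference (-0.98) and the same lowest and highest value in every group, so they read as 1 measurement. Their signal was low, with 2.92 to 3.21 in DKO+NAC, 4.02 to 4.67 in HRas-KO+NAC and 3.39 to 4.05 in NRas-KO+NAC. The 7 had differences between -2.99 and -2.38 on the log2 scale. Over these 7 probe sets the arrays read 2.98 to 5.98 in DKO+NAC, against 6.03 to 8.005 in HRas-KO+NAC, 5.01 to 8.13 in NRas-KO+NAC and 5.07 to 8.14 in Control+NAC. Untreated DKO arrays read 4.83 to 6.69. Both untreated single knockouts were far above them, with 10.46 to 11.61 for HRas-KO and 10.47 to 11.69 for NRas-KO, and untreated Control arrays read 10.14 to 11.52. Averaged over the 7, the DKO+NAC arrays read 3.93 to 5.32, below all other NAC arrays (6.29 to 7.74). The annotation used here does not say what these probe sets measure.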
